A study of Homo sapiens with 101 samples.

Results

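The comparison concerns SW480 cells in which HRAS was knocked down, set against SW480 cells in which either of the MEK kinases, MAP2K1 or MAP2K2, was knocked down. Its members are 18 of the 101 arrays of the series, taken by cell line and knockdown as labelled. The HRAS knockdown has 6 arrays and the 2 MEK knockdowns have 12, with 6 for MAP2K1 and 6 for MAP2K2. SW480 is an established colorectal carcinoma line grown as an adherent culture, and SW620, used below for comparison, is a line from a metastasis of the same tumour. The labels call each group by its knockdown, and each used short hairpin RNA, a construct from which the cell makes a small interfering RNA against the target transcript. The vector controls are 12 SW480 arrays, 6 with an empty vector and 6 with a non-target hairpin. The labels put a code after HRAS, B3 in replicate 1 and A1 in replicates 3 to 6, with none in replicate 2, and do not say that it names the hairpin. MAP2K1 carries the code C1 and MAP2K2 the code C3 wherever a code is given. An effect of a hairpin on other transcripts and an effect of losing its target cannot be told apart where a group may hold 1 hairpin, and the labels do not say whether transduced cells were pooled or cloned.

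HRAS is a small GTPase at the inner face of the plasma membrane. In its active state it recruits RAF kinases, which phosphorylate MEK1 (MAP2K1) and MEK2 (MAP2K2), which in turn phosphorylate the ERK kinases. Active RAS also binds the catalytic subunits of PI3 kinase and the exchange factors of the RAL GTPases, so RAS signalling has branches that do not pass through MEK. In colorectal epithelium ERK activity drives proliferation and its own feedback inhibitors of the Sprouty and DUSP families.

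All values are log2 RMA signals from a 3′ expression array, in which a difference of 1 is a doubling. The array medians of the 18 arrays lay between 5.08 and 5.22. The upper quartiles lay between 6.60 and 6.82 in replicates 1 and 2 and between 6.99 and 7.25 in replicates 3 to 6, so replicate 1, replicate 2 and replicates 3 to 6 were treated as 3 rounds and every comparison was made within round. Markers of colorectal epithelium were high on average: the mean signal over 8 such genes was 8.27 to 9.11 on the HRAS knockdown arrays and 9.28 to 9.95 on the MEK knockdown arrays. Not every member was high, and the keratin KRT20 had a mean of 3.60 over the 18 arrays, below the array medians. Markers of other cell types stayed low. The mean over 6 fibroblast genes was 4.88 to 5.77 against 4.76 to 6.07, that over 6 leukocyte genes 4.59 to 5.39 against 4.75 to 5.55, and that over 5 endothelial genes 4.68 to 5.52 against 4.65 to 5.52, HRAS knockdown arrays given before MEK knockdown arrays.

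Some arrays stood apart. On the MEK knockdown arrays of replicate 1, the mean of 77 genes that are high in SW620 and low in SW480 control cells was 6.13 for MAP2K1 and 7.13 for MAP2K2. It was 4.43 to 5.36 on the other 16 arrays and 4.68 to 4.85 on SW480 vector controls, against 7.82 to 9.17 on SW620 vector controls. The HRAS knockdown arrays of replicates 3 and 4 had a GAPDH 3′ minus 5′ probe difference, a sign of RNA degradation, of 1.39 and 1.47, against 0.14 to 0.54 on the other 16 arrays. Results are therefore also given without replicate 1 and without those HRAS knockdown arrays, and the part that these features play in any result was not tested.

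Each targeted transcript was lower in its own knockdown. HRAS, on chromosome 11 and read by 1 probe set, had signals of 5.81, 7.20, 7.80, 7.60, 7.54 and 7.47 in replicates 1 to 6 of its own knockdown. It had 8.03, 9.08, 9.06, 9.16, 9.18 and 9.16 in the MAP2K1 knockdown and 8.83, 9.01, 9.20, 9.12, 9.17 and 9.14 in the MAP2K2 knockdown. The groups did not overlap, and the deepest loss was in replicate 1, the replicate with code B3. The fitted difference between HRAS knockdown and both MEK knockdowns was -1.77 ± 0.13 (log2, SE, adjusted p = 3.0e-08, limma). Against vector controls HRAS changed by -1.86 in its own knockdown (adjusted p = 2.6e-08), and by -0.16 and -0.02 in the MAP2K1 and MAP2K2 knockdowns, neither of which passed the threshold. MAP2K1 fell by 1.37 in its own knockdown against vector controls (adjusted p = 3.2e-07), with values of -0.16 in the HRAS knockdown and 0.28 in the MAP2K2 knockdown that did not pass. MAP2K2 fell by 1.89 in its own knockdown (adjusted p = 1.9e-10), with 0.12 in the HRAS knockdown and 0.07 in the MAP2K1 knockdown, neither past the threshold. Neither MEK gene therefore passed a test of change under HRAS knockdown, and HRAS did not pass one under either MEK knockdown.

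**Figure D1:**
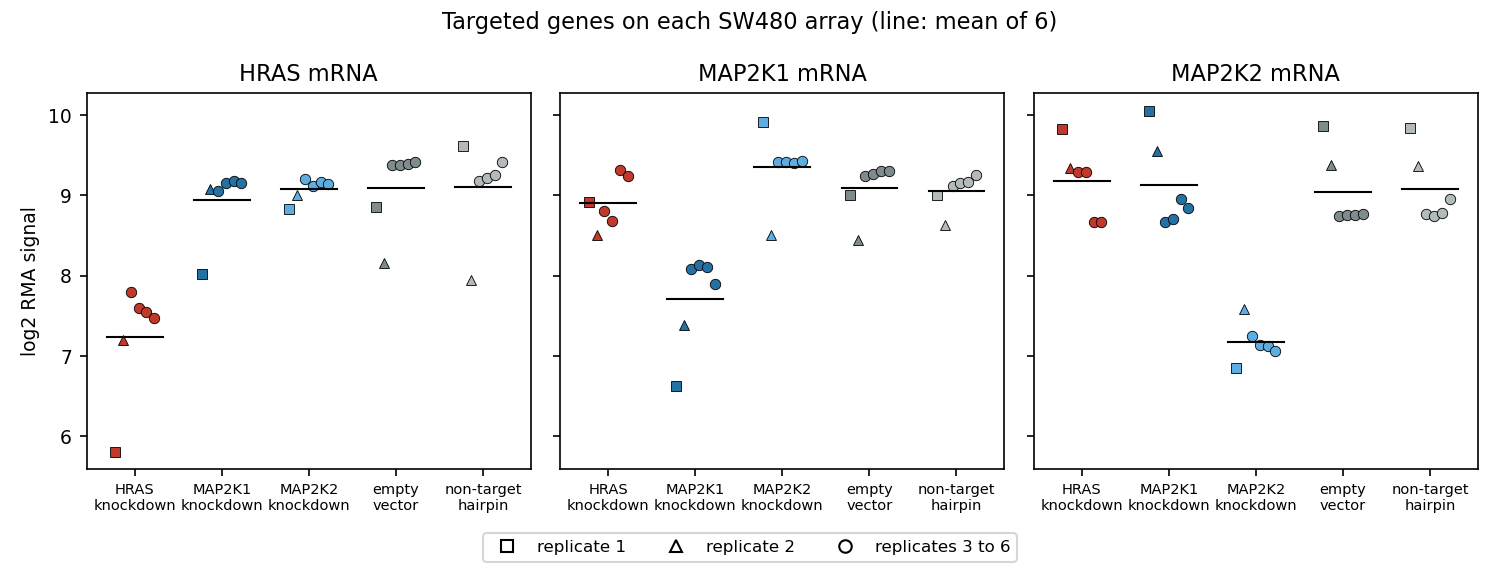
Signals (log2 RMA) of HRAS, MAP2K1 and MAP2K2 on every SW480 array of the 3 knockdowns and both vector controls, 6 arrays each, with replicates 1 and 2 marked by squares and triangles and the group mean by a line. Each gene has its lowest mean in its own knockdown, and HRAS is at 5.81 to 7.80 there, below every array of the MEK knockdowns.

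HRAS knockdown left many more transcripts different from the MEK knockdowns than these were from each other, and the large differences were nearly all losses. Of 19775 genes tested with limma (Benjamini-Hochberg adjusted p, threshold 0.05), 5895 (29.8%) differed between HRAS knockdown and both MEK knockdowns, 2395 (12.1%) higher and 3500 (17.7%) lower. At a 2-fold size or more, 13 were higher and 474 lower. The balance of small calls depended on the scaling: after a further quantile normalisation 57.5% of 6704 calls were higher, against 40.6% of calls on the values as deposited, while at 2-fold 30 were higher and 376 lower. HRAS knockdown differed from the MAP2K1 knockdown alone in 5303 genes (26.8%, with 10.4% higher and 16.4% lower) and from the MAP2K2 knockdown alone in 4050 (20.5%, with 7.1% higher and 13.4% lower). MAP2K1 and MAP2K2 knockdowns differed in 564 (2.85%, with 1.74% higher and 1.11% lower in MAP2K1), and in 282 with the replicate number as a block. Against the vector controls, which all 3 comparisons share, HRAS knockdown changed 5830 genes (29.5%, with 11.5% higher and 18% lower), MAP2K1 knockdown 1476 (7.46%, with 3.8% higher and 3.66% lower) and MAP2K2 knockdown 1265 (6.4%, with 2.85% higher and 3.55% lower). The MEK counts depended strongly on the arrays used. With replicates 3 to 6 only, MAP2K1 against MAP2K2 gave 1768, and MAP2K1 and MAP2K2 against controls gave 5395 and 4749. These were their highest counts in any setting tried. The highest for HRAS were 7371 against both MEK knockdowns and 8008 against controls. The ranges of all arrays were separate for few genes: the 6 HRAS knockdown arrays lay above all 12 MEK knockdown arrays for 35 genes (0.177%) and below them for 158 (0.799%). Without replicate 1 the count was 6912 (35%), 2859 higher (14.5%) and 4053 lower (20.5%), and 5356 genes were called in both analyses with the same sign, 90.9% of the calls with replicate 1 and 77.5% of those without it. Without the HRAS knockdown arrays of replicates 3 and 4 it was 3910, without all arrays of replicate 3 it was 3548 and without those of replicate 4 it was 3498. The titles call replicates 3 to 6 bioreps, and the labels do not say whether they were separate cultures. When these were averaged to 1 sample, the count was 144, with 3943 genes at an unadjusted p under 0.05, so the p-values here measure the spread between arrays, which may be technical. With replicates 1 and 2 alone, limma called 0 genes, with 1984 at an unadjusted p under 0.05.

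The 15 largest falls and 15 largest rises were taken from 2674 genes that were called against both MEK knockdowns together and against each alone, with the same sign in every round. Larger differences of genes that missed one of these conditions, such as TNFRSF11B, MAP2K2 and TPRG1L, are therefore not among them. All 30 had the same sign in all 6 replicates, where the rule already asked for the same sign in each of the 3 rounds. They were also called without replicate 1, as were all 2674, and without the HRAS knockdown arrays of replicates 3 and 4. For 12 of the 30 the HRAS knockdown arrays did not overlap the MEK knockdown arrays. Since the rule chose by size and sign in this contrast, nothing is read from these counts.

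**Figure D2:**
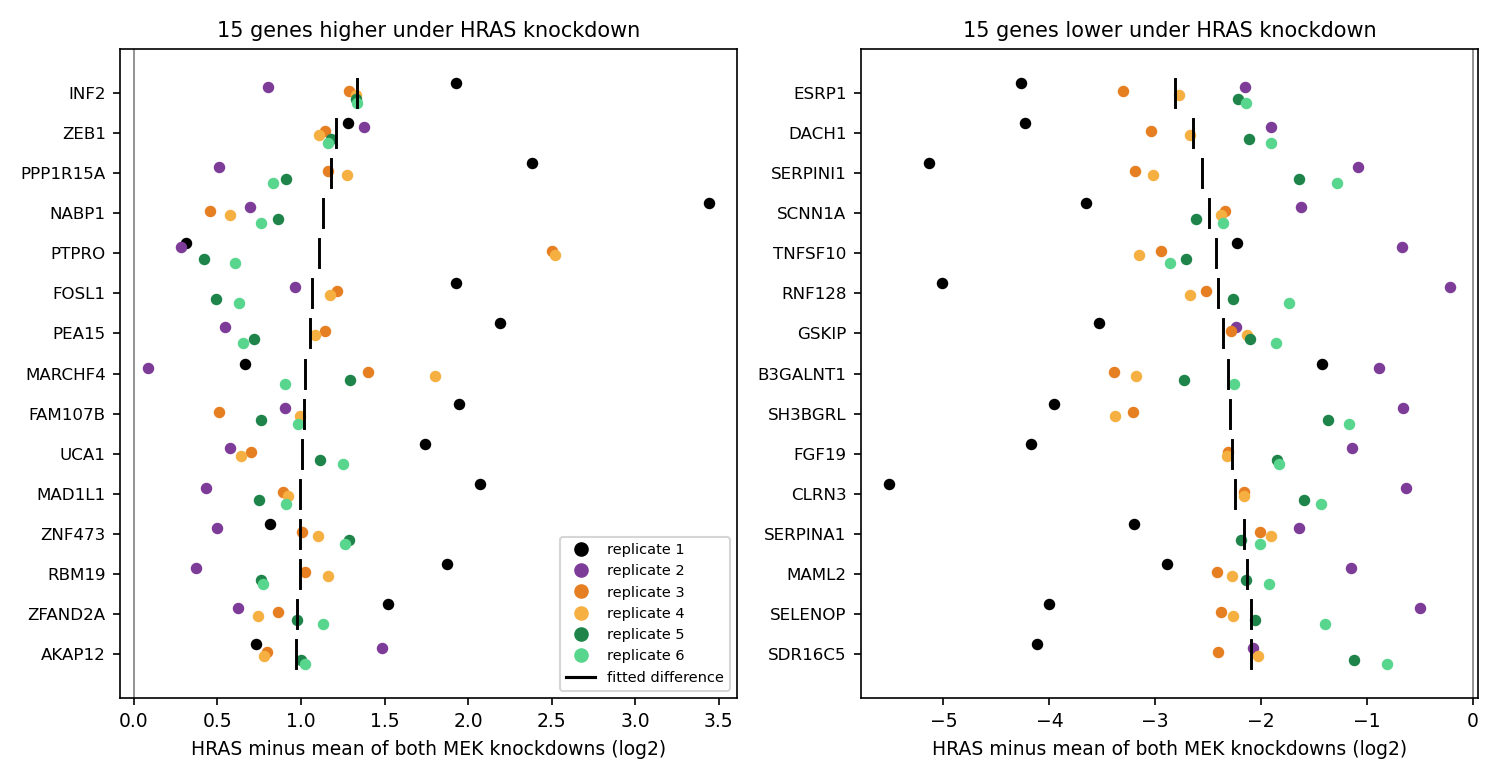
Difference between the HRAS knockdown array and the mean of both MEK knockdown arrays (log2) in each of 6 replicates, for the 15 largest rises and 15 largest falls, with the fitted difference as a black bar. All points lie on 1 side of 0, which the choice of these genes by sign in each round in part fixes. Replicate 1 (black) is often the farthest out, as for CLRN3 at -5.51 and NABP1 at 3.44.

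ESRP1, an RNA-binding protein that directs epithelial splice choices, had the largest fall. Its signal was 3.64 to 6.23 (median 5.43) on the HRAS knockdown arrays, against 6.92 to 9.14 (median 9.06) on MAP2K1 and 6.75 to 7.82 (median 7.79) on MAP2K2 knockdown arrays. No HRAS knockdown array reached the lowest MEK knockdown array. The difference was -2.81 ± 0.24 (adjusted p = 3.7e-07) and -2.52 without replicate 1. Against vector controls ESRP1 changed by -2.84 in the HRAS knockdown (adjusted p = 2.7e-10), and by 0.59 and -0.66 in the MAP2K1 and MAP2K2 knockdowns, neither past the threshold.

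A group of the falls lay on the HRAS side in this way. TNFSF10, which encodes the death ligand TRAIL, had 3.57 to 3.93 in the HRAS knockdown, below the array medians, against 4.15 to 7.67 in the MEK knockdowns and 5.18 to 7.67 in vector controls, a difference of -2.43 ± 0.29 from the MEK knockdowns (adjusted p = 1.2e-05). No detection call was used here, so whether signals under the array medians lie above background was not tested, and a difference from such signals, as for TNFSF10, SELENOP and SAMD9, may be a lower bound. TNFSF10 was also among the genes that differed most between the MEK knockdowns, 1.73 higher with MAP2K1 than with MAP2K2. GSKIP, which binds the kinase GSK3B, had 5.38 to 8.25 (median 7.74) against 8.13 to 10.24 (median 9.95), a difference of -2.36 ± 0.16. It changed by -2.30 against vector controls in the HRAS knockdown and by 0.06 and 0.04 in the MAP2K1 and MAP2K2 knockdowns. MAML2, a co-activator of Notch, was 4.27 to 6.01 against 6.26 to 8.13, with no overlap and a difference of -2.13 ± 0.14. SERPINA1, the protease inhibitor alpha-1-antitrypsin, was 5.63 to 6.48 against 7.75 to 8.93, also with no overlap, at -2.16 ± 0.15, and it was lower than in vector controls in all 3 knockdowns, by -2.91 for HRAS, -0.73 for MAP2K1 and -0.76 for MAP2K2. B3GALNT1, a glycosyltransferase of globoside synthesis, was 3.45 to 4.73 against 4.38 to 7.61, at -2.31 ± 0.23, and its ranges overlapped slightly, as did those of GSKIP. SCNN1A, the alpha subunit of the epithelial sodium channel, was 5.17 to 6.58 against 6.92 to 9.92, at -2.50 ± 0.25. Its brightest probe set gave that value, and the other 2 gave 0.23 and 0.29, so the direction for SCNN1A rests on 1 probe set.

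Other falls lay partly or mostly on the MEK side, with the MEK knockdowns above the vector controls. DACH1, a transcriptional cofactor of the dachshund family, was 3.60 to 4.88 in the HRAS knockdown, against 6.39 to 9.01 with MAP2K1 and 5.52 to 6.65 with MAP2K2, and 4.09 to 5.16 in vector controls. The difference between HRAS and MEK knockdowns was -2.65 ± 0.23. Set against controls, DACH1 rose by 2.88 in the MAP2K1 knockdown and by 1.38 in the MAP2K2 knockdown, while its change of -0.52 in the HRAS knockdown did not pass the threshold. CLRN3, a clarin membrane protein, SELENOP, a selenium carrier, and SERPINI1, the protease inhibitor neuroserpin, had the same layout. CLRN3 rose by 2.25 and 1.69 in the MAP2K1 and MAP2K2 knockdowns, SELENOP by 2.23 and 1.15 and SERPINI1 by 1.82 and 1.71, and their values of -0.28, -0.41 and -0.79 in the HRAS knockdown did not pass. These genes are brighter in SW620, where the median of the MEK knockdowns was 9.64 for CLRN3, 7.10 for SELENOP and 9.73 for SERPINI1, against 4.19, 3.63 and 6.04 in SW480 vector controls. In SW620 CLRN3 had 6.74 to 9.16 in the HRAS knockdown and 9.02 to 10.28 in the MEK knockdowns. The MEK knockdown arrays of SW480 replicate 1, which carry SW620-type genes, had 8.92 and 9.53 for CLRN3, and the other 10 MEK knockdown arrays had 4.99 to 6.30. Without replicate 1 the CLRN3 difference was -1.60, against -2.25 with it, that of SELENOP -1.72 against -2.10 and that of SERPINI1 -2.05 against -2.56. All 3 remained called, and the part of SW620-type RNA in them was not tested beyond leaving out that replicate.

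The remaining falls were below controls in the HRAS knockdown and above them in the MEK knockdowns, though not every such value passed. FGF19, a hormone of the ileum, differed by -2.27 ± 0.24, with a change of -1.61 in the HRAS knockdown and of 1.10 in the MAP2K1 knockdown against controls. SH3BGRL, a small thioredoxin-like adaptor, differed by -2.29 ± 0.34, RNF128, a ubiquitin ligase, by -2.41 ± 0.37 and SDR16C5, a retinol dehydrogenase, by -2.10 ± 0.28. RNF128 had a difference of -5.01 in replicate 1 and of -0.22 in replicate 2. It was 3.41 to 4.80 in the HRAS knockdown, against 3.54 to 9.43 in the MEK knockdowns, so its groups overlapped.

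**Figure D3:**
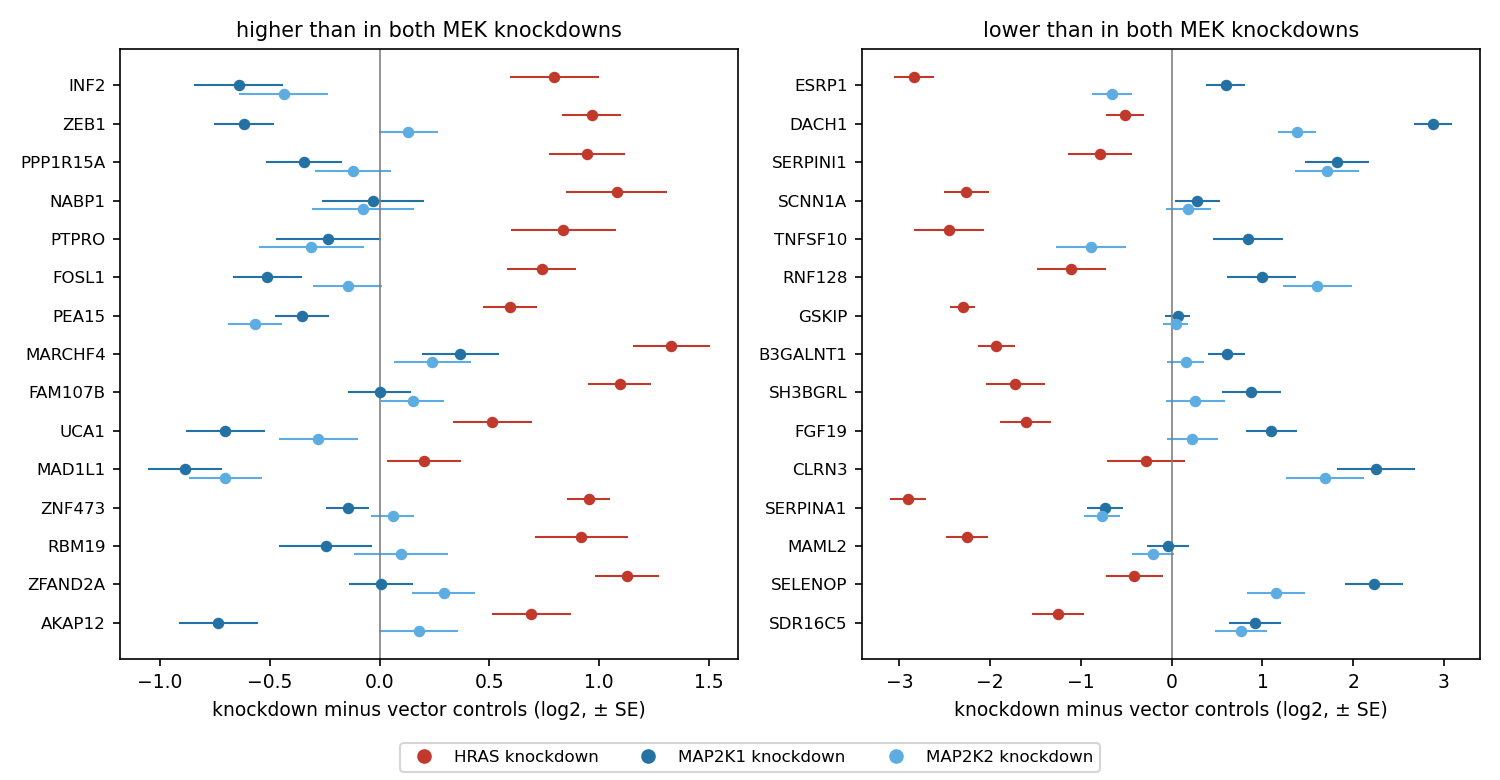
Change of each named gene against vector controls (log2, ± SE) in the HRAS, MAP2K1 and MAP2K2 knockdowns of SW480, which share the same 12 control arrays. For ESRP1, GSKIP, SCNN1A and MAML2 the HRAS knockdown lies between -2.84 and -2.26, with the MEK knockdowns between -0.66 and 0.59, and for DACH1, CLRN3, SELENOP and SERPINI1 the MEK knockdowns lie between 1.15 and 2.88, with the HRAS knockdown between -0.79 and -0.28.

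The rises were smaller, from 0.97 to 1.33. INF2, a formin that nucleates and severs actin filaments, was 8.20 to 9.27 (median 9.20) in the HRAS knockdown, against 6.12 to 8.02 (median 7.88) in the MEK knockdowns, with no overlap and a difference of 1.33 ± 0.12 (adjusted p = 5.7e-07). Its 3 dimmer probe sets gave -0.16, -0.09 and 0.08, so the rise rests on 1 probe set. PPP1R15A, which directs a phosphatase to the translation factor eIF2 alpha under stress, was 8.50 to 11.39 against 7.53 to 9.13, at 1.18 ± 0.15. ZFAND2A, an arsenite-inducible protein, rose by 0.98 ± 0.11 and lay at 1.13 above controls in the HRAS knockdown, against 0.01 and 0.29 in the MAP2K1 and MAP2K2 knockdowns. FOSL1, the AP-1 subunit FRA-1, was 9.10 to 10.55 against 8.09 to 9.15, at 1.07 ± 0.14. PEA15, a small protein that binds ERK and death effector domains, was 9.88 to 11.15 against 8.68 to 9.46, with no overlap, at 1.05 ± 0.15. AKAP12, a scaffold for protein kinases A and C, was 9.59 to 12.29 against 7.77 to 11.71, at 0.97 ± 0.12. Against controls it was at 0.69 in the HRAS knockdown and at -0.73 in the MAP2K1 knockdown. UCA1, a long non-coding RNA, was 6.43 to 7.71 against 5.37 to 6.40, with no overlap, at 1.00 ± 0.13. NABP1, which binds single-stranded DNA, rose by 1.13 ± 0.26, with 3.44 in replicate 1 and 0.45 to 0.86 in the others, and by 0.67 without replicate 1. PTPRO, a receptor tyrosine phosphatase, rose by 1.11 ± 0.29, and the HRAS knockdown arrays of replicates 3 and 4 decided its size, with differences of 2.50 and 2.52 against 0.28 to 0.61 elsewhere. Without those arrays the PTPRO difference was 0.41 (adjusted p = 0.017), and its 2 much dimmer probe sets gave 0.07 and -0.20. MAD1L1, a spindle checkpoint protein, rose by 1.00 ± 0.15, and here the MEK side moved: against controls it was at -0.88 and -0.70 in the MAP2K1 and MAP2K2 knockdowns, both called, and at 0.20 in the HRAS knockdown, which did not pass. MARCHF4, a membrane ubiquitin ligase, ZNF473, a zinc finger protein of histone mRNA processing, RBM19, a protein of ribosome assembly, and FAM107B rose by 0.99 to 1.03. The dimmer probe sets of ZNF473 and RBM19 gave 0.11 and 0.08, so each of these rises rests on 1 probe set. That of FAM107B gave 0.87.

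Gene lists are described by how many members passed the test, beside 12.1% of all genes higher and 17.7% lower. Without replicate 1 these shares of all genes were 14.5% and 20.5%. Without the HRAS knockdown arrays of replicates 3 and 4 they were 7.09% and 12.7%. List counts from those settings are to be read beside the shares of the same setting. Of the 216 genes called in the lists and the cell type markers, each counted once, 209 kept their call without replicate 1 and 146 without the HRAS knockdown arrays of replicates 3 and 4, a setting with 4 HRAS knockdown arrays, and none turned. After the further quantile normalisation 188 kept the call, 28 lost it and none turned, and those lost include CRB3, TGFB1, LIF, RASAL1, IFI27, OAS3, PSMB8, TMPRSS2, PHGDH, HSPA5, RPS3 and AGO1, which are named below. In that setting 19.5% of all genes were higher and 14.4% lower. Rises then outnumbered falls among death ligands, receptors and BCL2 family genes (7 and 4) and RAS GTPases and regulators (5 and 3). The same held for G1/S genes (6 and 4) and for YAP and TEAD targets (7 and 6). In these lists falls were the more frequent on the values as deposited. Of 23 genes of epithelial adhesion and splicing, 12 (52.2%) fell and none rose, and the median difference was -0.28, against 0.02 over all genes. Without replicate 1, 15 fell, and without the HRAS knockdown arrays of replicates 3 and 4, 11 fell. CDH1, the adherens junction cadherin, was 4.56 to 7.19 in the HRAS knockdown, against 5.94 to 9.44 with MAP2K1 and 6.12 to 8.18 with MAP2K2. The ranges overlapped, though at every replicate number the HRAS knockdown was lower, and the difference was -2.0 ± 0.27 (adjusted p = 4.2e-05). Arrays of replicates 3 to 6 share only a number between groups, so there the match by number is arbitrary. Against controls CDH1 fell by 1.48 in the HRAS knockdown and rose by 1.06 in the MAP2K1 knockdown. The tight junction genes CLDN1 (-1.39 ± 0.13) and CLDN7 (-1.38 ± 0.15) and the adhesion molecule EPCAM (-1.34 ± 0.19) fell with no overlap between groups. CLDN1 was 6.98 to 7.70 against 8.45 to 9.35, and in vector controls 8.29 to 9.35. OVOL2, a repressor of mesenchymal genes, fell by 0.79 ± 0.07, also with no overlap. MARVELD3 (-0.91) and MARVELD2 (-0.68), of the tight junction, ST14, a membrane serine protease (-0.55), KRT18, an epithelial keratin (-0.31), CRB3, a polarity protein (-0.29), and TJP1, a junction scaffold (-0.28), completed the falls. TJP1 (-0.21, adjusted p = 0.105) no longer passed without those HRAS arrays.

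Mesenchymal genes did not rise as a group: of 22 measured, 2 rose, 5 fell and the median was -0.10. ZEB1, a transcription factor that represses CDH1 and ESRP1 in carcinoma cells, was 6.15 to 8.40 (median 8.26) in the HRAS knockdown, 4.77 to 6.79 (median 6.44) with MAP2K1 and 4.77 to 7.81 (median 7.73) with MAP2K2. The ranges overlapped and the level differed between rounds, and at the 6 replicate numbers the difference lay between 1.11 and 1.38, with a fitted 1.21 ± 0.14 (adjusted p = 7.0e-06). Against controls ZEB1 was at 0.97 in the HRAS knockdown and at -0.62 in the MAP2K1 knockdown, both called, and at 0.13 in the MAP2K2 knockdown, which did not pass. The receptor AXL rose by 0.77 ± 0.19, with the MAP2K1 knockdown at -0.91 and the HRAS knockdown at 0.18 against controls. Fibronectin, FN1, fell by 0.86, the collagen gene COL4A1 by 0.76, TGFB2 by 0.71, TGFBI by 0.70 and TGFB1 by 0.48. FN1 (-0.67, adjusted p = 0.066), TGFB2 (-0.48, adjusted p = 0.098) and TGFB1 (-0.54, adjusted p = 0.079) no longer passed without the HRAS knockdown arrays of replicates 3 and 4. Leaving out replicate 1 gave 0.48 for AXL, -0.48 for COL4A1 and -0.25 for TGFB1, all called. VIM (0.54), SNAI2 (0.53), CDH2 (0.08) and ZEB2 (-0.04) did not pass. Without replicate 1, 2 mesenchymal genes rose and 9 fell, and without the HRAS knockdown arrays of replicates 3 and 4, 4 rose and 2 fell.

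Transcripts known to follow ERK activity fell more often than they rose under HRAS knockdown relative to MEK knockdown, 8 lower and 2 higher of 27, with 29.6% lower against 17.7% of all genes. The feedback inhibitors SPRY1 and SPRY2 were among them. SPRY1 was 4.67 to 5.65 against 5.90 to 6.74, with no overlap, at -1.0 ± 0.11. Against controls it was at -1.06 in the HRAS knockdown, -0.17 with MAP2K1 and 0.06 with MAP2K2. Its other probe set, of nearly the same brightness, gave -0.0046, so the fall of SPRY1 rests on 1 probe set. SPRY2 was at -1.07 ± 0.20. PHLDA1, an early response gene, was 6.78 to 9.35 (median 8.94) against 8.55 to 12.32 (median 10.35), at -1.81. The EGF receptor ligand EREG was at -1.62, the transcription factor ETV1 at -1.30, FOS at -0.86, IER3 at -0.50 and the cytokine LIF at -0.40. FOSL1 and the ERK phosphatase DUSP5 (0.28) rose. DUSP6 (-0.56), DUSP4 (-0.42), EGR1 (-0.32), CCND1 (-0.18), ETV5 (0.16), ETV4 (0.13) and MYC (-0.05) did not pass, so the list did not move as a whole. Leaving out replicate 1 gave 12 falls and 3 rises, with PHLDA1 at -1.19 and EREG at -1.0, and LIF (-0.37, adjusted p = 0.062) did not pass without the HRAS knockdown arrays of replicates 3 and 4.

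Within the pathway itself, 2 of 20 RAS GTPases and regulators rose and 4 fell, HRAS included. RRAS2, a related GTPase, fell by 0.54, RASGRP1, a RAS exchange factor, by 0.71, and RASAL1, a GTPase-activating protein, by 0.25, while FNTA, a subunit of farnesyltransferase, rose by 0.38 and RASAL2 by 0.50. For RASAL2 another probe set gave the opposite sign. The dimmer probe sets of FNTA gave -0.0013 and 0.25. Among 15 RAF, MEK and ERK kinases and scaffolds 4 rose and 2 fell. MAP2K2, which was itself knocked down on 6 of the MEK arrays, is 1 of the rises, at 1.03. RPS6KA3, the ERK-activated kinase RSK2, fell by 0.91 and the scaffold KSR2 by 0.63, and the scaffold KSR1 rose by 0.37. For RPS6KA3 the other probe set, brighter on these arrays, gave -0.18. Of 19 genes of PI3 kinase, AKT and mTOR, 5 fell and 3 rose. PIK3R1, the regulatory subunit, was at -0.87, PHLPP1, an AKT phosphatase, at -0.58 and MTOR at -0.57. RPTOR, PIK3CB and PIK3CD rose by 0.28 to 0.30. For PIK3R1 a probe set that was brighter on these arrays gave 0.10, and a dimmer one gave -0.38. FOXO target genes, which AKT holds down, had 6 falls and 2 rises of 20. TNFSF10, catalase CAT (-1.11), TXNIP (-0.96) and ERBB3 (-0.89) fell, and KLF4 (0.72) and KLF6 (0.70) rose. The pro-apoptotic BCL2L11 fell by 0.49, and its changes against controls were 0.06 in the HRAS knockdown, 0.54 with MAP2K1 and 0.57 with MAP2K2, of which both MEK values passed. Another BCL2L11 probe set, nearly as bright, gave 0.04 for HRAS against MEK knockdowns. A dimmer one gave -0.48, and the rest lay between -0.08 and 0.19. Of 19 RAL and exocyst genes 6 fell, by -0.50 to -0.39, among them RGL1, a RAL exchange factor, EXOC6 and the kinase TBK1, and RGL3 rose by 0.21. Most members of these lists, 14 of 20, 9 of 15, 11 of 19, 12 of 20 and 12 of 19 in the order given, did not pass. Several of these counts moved with the arrays used. Leaving out the HRAS knockdown arrays of replicates 3 and 4 gave 4 rises among RAS GTPases and regulators, 2 rises and 3 falls among the kinases and scaffolds, 1 rise and 4 falls for PI3 kinase, AKT and mTOR, and 2 rises and 4 falls for FOXO targets. KSR1 (0.31), PIK3CB (0.21), PIK3CD (0.19), TXNIP (-1.14) and RGL3 (0.16) then lost their calls, with adjusted p from 0.052 for KSR1 to 0.167 for RGL3. Leaving out replicate 1 gave 8 falls for PI3 kinase, AKT and mTOR and 9 for FOXO targets, with TXNIP at -0.47 and ERBB3 at -0.53. For ERBB3 a dimmer probe set gave 0.31.

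Interferon-response genes showed 13 falls (39.4%) and 3 rises among 33, with a median of -0.22. SAMD9, an antiviral factor, was 3.46 to 3.98 in the HRAS knockdown, against 4.68 to 6.34 in the MEK knockdowns, with no overlap, and its difference was -1.75 ± 0.18 (adjusted p = 2.8e-06). IFIH1, the double-stranded RNA sensor MDA5, was 3.88 to 5.99 against 5.17 to 7.70, at -1.75 ± 0.23. IFI6, an interferon-induced membrane protein, was 6.02 to 6.94 against 6.64 to 8.01, at -0.82 ± 0.12. The promoters of these 3 genes are shown because they share the core of the interferon-stimulated response element, TTTC, any 2 bases and TTTC again. They are given from RefSeq (GRCh38.p14), all on the minus strand, as 300 bases that lie mostly before the gene's start and end inside the gene. Capitals mark the motif on either strand, and on the opposite strand it reads GAAA, any 2 bases and GAAA. SAMD9 lies at chr7:93117930-93118229, IFIH1 at chr2:162318635-162318934 and IFI6 at chr1:27672143-27672442.
SAMD9: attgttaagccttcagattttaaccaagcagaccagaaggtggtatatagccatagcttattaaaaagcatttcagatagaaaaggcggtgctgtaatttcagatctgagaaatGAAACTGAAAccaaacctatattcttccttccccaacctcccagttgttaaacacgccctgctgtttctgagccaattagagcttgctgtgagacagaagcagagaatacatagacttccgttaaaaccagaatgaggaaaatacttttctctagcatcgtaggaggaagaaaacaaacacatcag
IFIH1: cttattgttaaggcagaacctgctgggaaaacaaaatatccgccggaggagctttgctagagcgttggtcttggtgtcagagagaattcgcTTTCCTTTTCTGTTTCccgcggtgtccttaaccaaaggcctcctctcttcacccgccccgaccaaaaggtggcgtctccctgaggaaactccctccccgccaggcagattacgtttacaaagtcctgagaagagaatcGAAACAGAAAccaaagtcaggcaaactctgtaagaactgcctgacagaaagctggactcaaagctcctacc
IFI6: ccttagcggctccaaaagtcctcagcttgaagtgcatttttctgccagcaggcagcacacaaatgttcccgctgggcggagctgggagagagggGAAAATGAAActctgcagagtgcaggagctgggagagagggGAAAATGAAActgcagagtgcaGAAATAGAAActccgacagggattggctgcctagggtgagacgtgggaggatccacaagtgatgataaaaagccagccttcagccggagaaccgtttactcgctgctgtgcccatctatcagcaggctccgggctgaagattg
The motif occurs 1 time in the SAMD9 window and 3 times in each of the others, where matches in IFIH1 overlap. It is found in 17 of the 24 interferon genes that have an entry (70.8%), against 996 of 27305 promoters of the same length (3.65%), and a match is only a description of these letters. Not all genes that hold it passed the test: IFIT3 (-1.27), ISG20 (-0.94), IFIT5 (-0.93), BST2 (-0.60), OAS3 (-0.51) and IFI27 (-0.48) fell, IFI44 rose by 0.33, and MX1 (-0.01), IFIT1 (-0.08) and ISG15 (0.02) did not pass. CMPK2 (-0.94), OAS1 (-0.63), IFI35 (-0.62) and USP18 (-0.47) fell as well, and IRF7 (0.32) and OASL (0.37) rose. With the HRAS knockdown arrays of replicates 3 and 4 left out, 10 fell and 1 rose, IFIT3 was at -0.76 and OAS3 at -0.32, and IFIT5 (-0.69), BST2 (-0.64), IRF7 (0.23), IFI27 (-0.39) and OASL (0.15) lost their calls, with adjusted p from 0.060 for IFIT5 to 0.273 for OASL. Without replicate 1, 18 fell and 4 rose, and IFI27 was at -0.75. Among 17 genes of MHC class I and antigen processing 6 fell and 1 rose, led by the peptidase ERAP2 (-0.86) and the immunoproteasome subunits PSMB9 (-0.59) and PSMB8 (-0.40), but 2 falls and no rise were counted without those HRAS arrays, where PSMB8 was at -0.11 (adjusted p = 0.542), and 9 falls and no rise without replicate 1. Of 22 death ligands, receptors and BCL2 family genes 5 fell and 3 rose, with the decoy receptor TNFRSF10D (0.66) and BAK1 (0.58) among the rises. Leaving out those HRAS arrays gave 3 falls, and leaving out replicate 1 gave 7 falls with TNFRSF10D at 0.42. After the further quantile normalisation 4 of the death list fell and 7 rose.

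**Figure D4:**
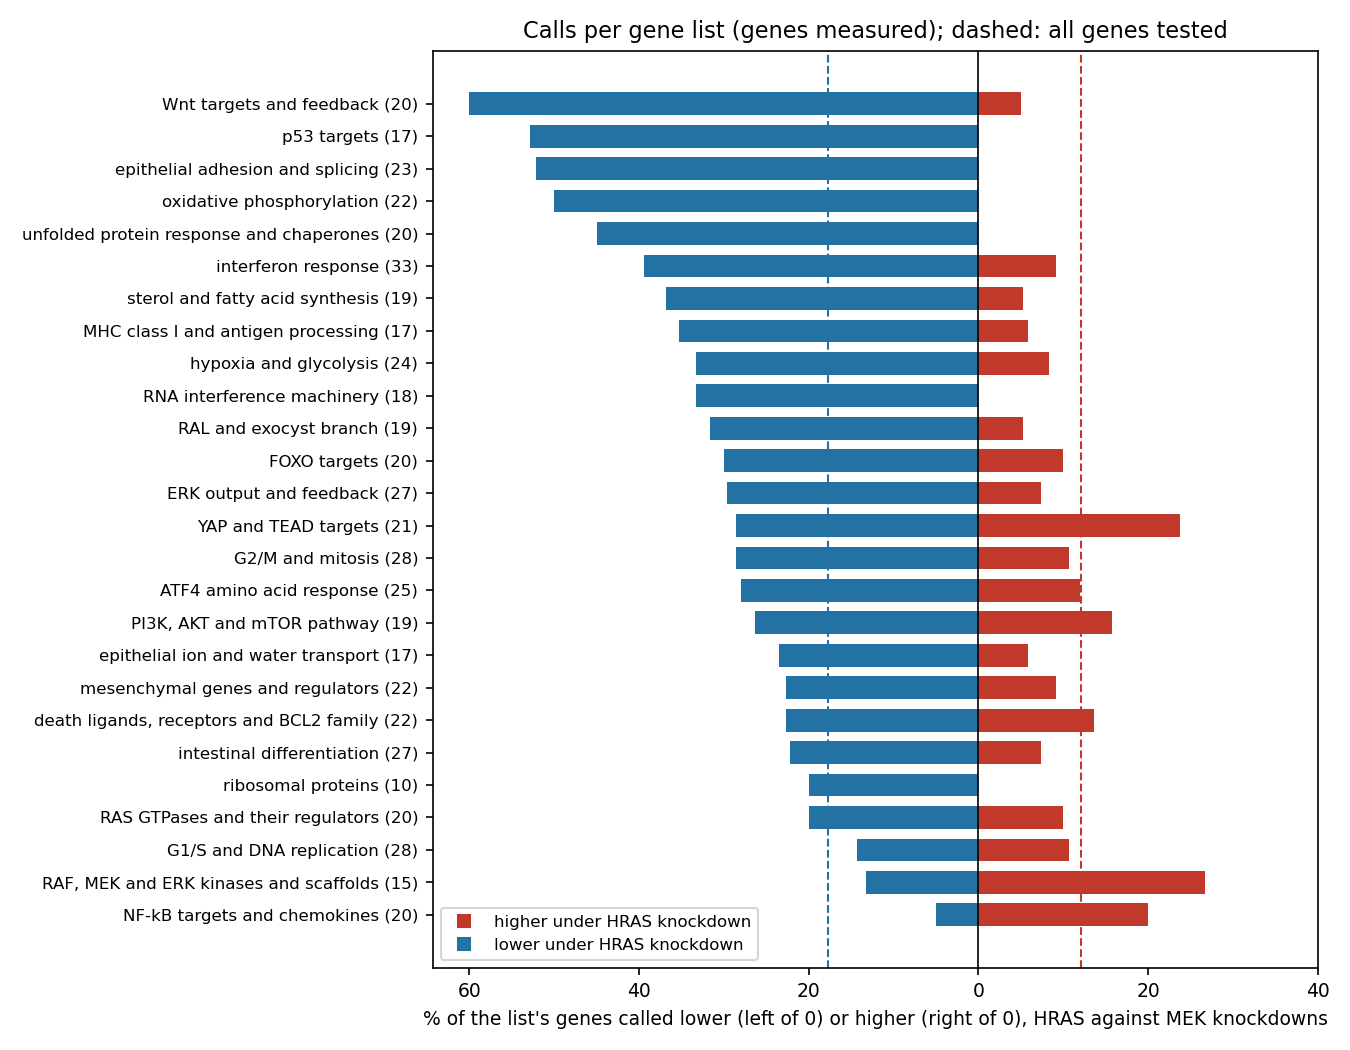
Share of each gene list called lower (left) or higher (right) under HRAS knockdown against both MEK knockdowns, in % of the genes measured, whose number is in brackets, with dashed lines at all genes tested (17.7% lower, 12.1% higher). Wnt targets have the longest left bar at 60%, and the p53, epithelial, oxidative phosphorylation and unfolded protein lists, at 45% to 52.9% lower, have no right bar.

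Among the 26 lists, Wnt target and feedback genes had the largest share of falls, 12 of 20 (60%), with 1 rise and a median of -0.70. APCDD1, a secreted Wnt inhibitor, was 9.30 to 10.49 in the HRAS knockdown, against 9.80 to 12.19 in the MEK knockdowns, at -1.67 ± 0.18 (adjusted p = 3.2e-06). Against controls it was -1.26 in the HRAS knockdown and 0.84 in the MAP2K1 knockdown, both called, and -0.03 with MAP2K2. DKK4 (-1.60), TNFRSF19 (-1.40), the intestinal stem cell factor ASCL2 (-1.36), the receptor-removing ligase ZNRF3 (-1.16), NKD1 (-1.09), NOTUM (-0.87), PROX1 (-0.74), BAMBI (-0.73), SP5 (-0.68), SOX9 (-0.59) and AXIN2 (-0.36) fell, and the inhibitor DKK1 rose by 0.81. For NKD1 another probe set, nearly as bright, gave -0.09, and a dimmer one gave -0.18. LGR5 (-0.84), LEF1 (-0.21), RNF43 (-0.11) and MYC did not pass. The count was 14 falls and 1 rise without replicate 1, with NOTUM at -0.56 and PROX1 at -0.49. It was 11 falls and 2 rises without the HRAS knockdown arrays of replicates 3 and 4, where AXIN2 (-0.12, adjusted p = 0.511) did not pass. Genes of intestinal differentiation gave 6 falls and 2 rises of 27, near the background, with FGF19, VIL1, the microvillus protein villin (-1.50), and CEACAM1 (-1.28) lower. For CEACAM1 another probe set gave the opposite sign, and VIL1 was at -0.96 without replicate 1. Leaving out the HRAS knockdown arrays of replicates 3 and 4 gave 5 falls and 1 rise. Of 17 genes of ion and water transport 4 fell, SCNN1A, ATP1B1, a sodium pump subunit (-1.36), the chloride channel ANO1 (-1.09) and the protease TMPRSS2 (-0.35), and SLC9A3, a sodium-proton exchanger, rose by 0.23. TMPRSS2 was at -0.23 without replicate 1, and another probe set of nearly the same brightness gave 0.10. SLC9A3 (0.17, adjusted p = 0.094) did not pass without those HRAS arrays, so no transport gene rose there.

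Stress programmes split. Of 25 genes of the ATF4 amino acid response, 3 rose and 7 fell. The factors ATF3 (0.96), ATF4 (0.57) and DDIT3 (0.48) rose, while the biosynthetic and transport genes ASNS (-1.40), SLC7A11 (-1.36), PSAT1 (-0.94), SLC7A5 (-0.53) and PHGDH (-0.37) fell. ATF3 was 7.35 to 9.27 against 6.48 to 7.66, and 6.17 to 8.54 in controls. SLC7A11, the cystine transporter, was 4.87 to 6.94 against 5.55 to 8.44, and against controls changed by -0.72 in the HRAS knockdown and by 0.99 in the MAP2K1 knockdown. Chaperones and sensors of the unfolded protein response had 9 falls of 20 (45%) and no rise, from PDIA6 at -0.60 to HSPA5 at -0.23, with 14 falls without replicate 1 and 3 without the HRAS knockdown arrays of replicates 3 and 4. HSPA5 (-0.15, adjusted p = 0.276) and PHGDH (-0.36, adjusted p = 0.118) lost their calls without those arrays. Of 17 p53 target genes 9 (52.9%) fell and none rose. GDF15, a stress-induced cytokine, was 5.90 to 6.75 against 7.48 to 8.82, with no overlap, at -1.55 ± 0.14 (adjusted p = 3.5e-07). The RNA-binding protein ZMAT3 fell by 1.37 and the ribonucleotide reductase subunit RRM2B by 0.95, and CDKN1A (-0.38) did not pass. Without those arrays 7 p53 targets fell, and without replicate 1 it was 12.

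Metabolic lists gave mostly falls on the values as deposited. Oxidative phosphorylation had 11 falls of 22 (50%) and no rise, with a range from -0.50 for ATP5F1B, a subunit of ATP synthase, to 0.13, and a median of -0.26. The count was 8 without replicate 1 and 7 without the HRAS knockdown arrays of replicates 3 and 4. Sterol and fatty acid synthesis had 7 falls of 19, among them INSIG1 (-1.09), MSMO1 (-1.07) and SCD (-0.68), and 1 rise. It had 11 falls without replicate 1, and 7 falls and no rise without those HRAS arrays, where INSIG1 was at -0.82 (adjusted p = 0.077). The dimmer probe sets of SCD gave -0.12, 0.11 and -0.13, so its fall rests on 1 probe set. Hypoxia and glycolysis genes had 8 falls and 2 rises of 24, with ANKRD37 at -0.89 and EGLN3 at -0.72, against 8 falls and 4 rises without replicate 1 and 5 falls and 3 rises without those HRAS arrays. After the further quantile normalisation this list gave 4 falls and 4 rises (16.7% each), beside 14.4% and 19.5% of all genes. Oxidative phosphorylation then had 9 falls and no rise, and sterol and fatty acid synthesis 7 falls and 2 rises. In the cell cycle, 4 of 28 G1/S genes fell and 3 rose, and 8 of 28 G2/M genes fell and 3 rose, with NEK2 at -0.77, CDK1 at -0.74 and MKI67, the proliferation marker, at 0.60. These counts and values depended on the arrays used. Leaving out replicate 1 gave 12 falls and 3 rises for G1/S and 15 falls and 3 rises for G2/M, with MKI67 at 0.34. Leaving out the HRAS knockdown arrays of replicates 3 and 4 gave 3 falls and no rise for G1/S and 5 falls and 3 rises for G2/M, with CDK1 at -0.36 and MKI67 at 0.57, which then missed the threshold (adjusted p = 0.058). CDK1 averaged 8.74 on those HRAS arrays and 9.99 on those of replicates 5 and 6. YAP and TEAD targets moved both ways, 5 up and 6 down of 21, and NF-kB targets gave 4 rises and 1 fall of 20, with NFKBIA at 0.43 and TNFAIP3 at 0.45. Without those HRAS arrays YAP and TEAD targets gave 4 rises and 2 falls and NF-kB targets 2 rises and no fall, and TNFAIP3 (0.32, adjusted p = 0.109) did not pass. Of 10 ribosomal protein genes RPL3 (-0.28) and RPS3 (-0.18) fell, and RPS3 (-0.06, adjusted p = 0.394) did not pass without those arrays. Of 18 genes of the RNA interference machinery, which hairpins use, 6 fell and none rose. It was 6 and 4 without replicate 1, and 4 and 2 without those HRAS arrays. DICER1, which cuts hairpin precursors, was 5.76 to 8.54 against 7.24 to 9.69, at -1.23 ± 0.10, and against controls it fell by 0.79 in the HRAS knockdown and rose by 0.66 in the MAP2K1 knockdown. AGO4 (-0.72), PRKRA (-0.41), TNRC6C (-0.41), EIF2AK2 (-0.32) and AGO1 (-0.27) were the others, whereas AGO2 (-0.15) and DROSHA (0.27) did not pass. AGO4 (-0.54, adjusted p = 0.106) and PRKRA (-0.18, adjusted p = 0.110) lost their calls without those HRAS arrays, and AGO1 was at -0.17 without replicate 1.

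The source names of replicates 3 to 6 end in the letter A or B and a number, and the labels do not explain these endings. Within replicates 3 to 6, the HRAS knockdown arrays fell into 2 pairs, which the MEK knockdown arrays did not at this size. Between these pairs 388 genes differed by more than 1 in the HRAS knockdown (mean of replicates 3 and 4 against mean of replicates 5 and 6), 65 higher and 323 lower in replicates 3 and 4. The same split gave 0 genes in the MAP2K1 knockdown and 0 in the MAP2K2 knockdown. Among named genes PTPRO was 2.02 higher in replicates 3 and 4, and SH3BGRL (-1.94), SERPINI1 (-1.63) and SDR16C5 (-1.29) were lower there, while TNFSF10, SERPINA1 and INF2 differed by 0.0044, 0.03 and 0.06. As a description across 19775 genes, which are not independent replicates and share the arrays' processing, the HRAS minus MEK difference correlated at 0.91 between replicates 3 and 4, at 0.79 between 5 and 6 and at 0.48 to 0.60 across these pairs.

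Replicate 1, with its own HRAS code, can be set against a fit that did not use it. Of the 6912 genes called without replicate 1, 76.8% had the same sign in replicate 1, against 64.2% of all genes. Among the 415 of those that differed by at least 2-fold it was 375 (90.4%). With the MAP2K1 knockdown alone as the comparison in replicate 1 the share was 78.2%, with the MAP2K2 knockdown alone, the array with the higher SW620-type signal, 70.1%, and with vector controls 80%. This replicate is 1 array per group, so the shares carry no test.

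The same contrast was available in SW620 with 6 HRAS and 12 MEK knockdown arrays. The difference between lines, SW480 minus SW620, was called for 1847 genes (9.34%), 521 higher (2.63%) and 1326 lower (6.71%) in SW480. That count was 1134 with the replicate number as a block, 889 without the HRAS knockdown arrays of SW480 replicates 3 and 4, and 2814 without the SW620 MAP2K1 array of replicate 2, whose GAPDH 3′ minus 5′ difference was 6.04. In SW620 itself 2570 genes (13%) were called, 1014 higher (5.13%) and 1556 lower (7.87%). As a description across genes, the differences of the lines correlated at 0.51. Of the 30 named genes 26 had the same sign in SW620 and 20 were called there, 11 of the falls and 9 of the rises. For 15 the difference between lines was itself called. These genes were chosen by their size in SW480, which favours larger values there, so nothing is read from that count. HRAS differed by -1.77 in SW480 and by -1.16 in SW620, a difference that did not pass the threshold. ESRP1 differed by -2.81 in SW480 and -1.74 in SW620, GSKIP by -2.36 and -1.72, and MAML2 by -2.13 and -0.75, each called in both lines and called as different between them. SERPINA1 (-2.16 and -2.50), FGF19 (-2.27 and -1.91), TNFSF10 (-2.43 and -1.64) and AKAP12 (0.97 and 1.05) were called in both lines, with no called difference. OVOL2 was at -0.79 and -0.82. SDR16C5 was at -2.10 in SW480 and 0.02 in SW620, where its signal of 3.63 to 4.24 lay below the array medians on all 18 arrays. CLDN1 (-1.39 and -0.09), UCA1 (1.00 and -0.03) and GDF15 (-1.55 and 0.20) also differed between lines, each with no call in SW620.

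Some transcripts moved in opposite directions in the 2 lines. FN1 was at -0.86 in SW480 and 2.03 in SW620, a difference of -2.89 ± 0.24 (adjusted p = 1.3e-09). DEFA5, an intestinal defensin, was at -1.25 and 2.85, and its signal in SW620 was 5.39 to 9.12 in the HRAS knockdown, against 4.33 to 5.58 in the MEK knockdowns. EREG was at -1.62 and 1.07 and TGFB2 at -0.71 and 1.13. TNFRSF11B, the decoy receptor osteoprotegerin, was 3.98 to 6.59 in the SW480 HRAS knockdown, against 4.35 to 8.79 in the MEK knockdowns and 7.65 to 9.76 in controls, at -2.81 ± 0.37, and it was at 0.52 in SW620, which did not pass. Of the epithelial list, 10 of 23 genes fell in SW620 and none rose, against 12 and none in SW480, and 6 of its genes differed between lines. Of the Wnt list 5 fell and 3 rose in SW620, and of the interferon list 11 fell and 1 rose.

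**Figure D5:**
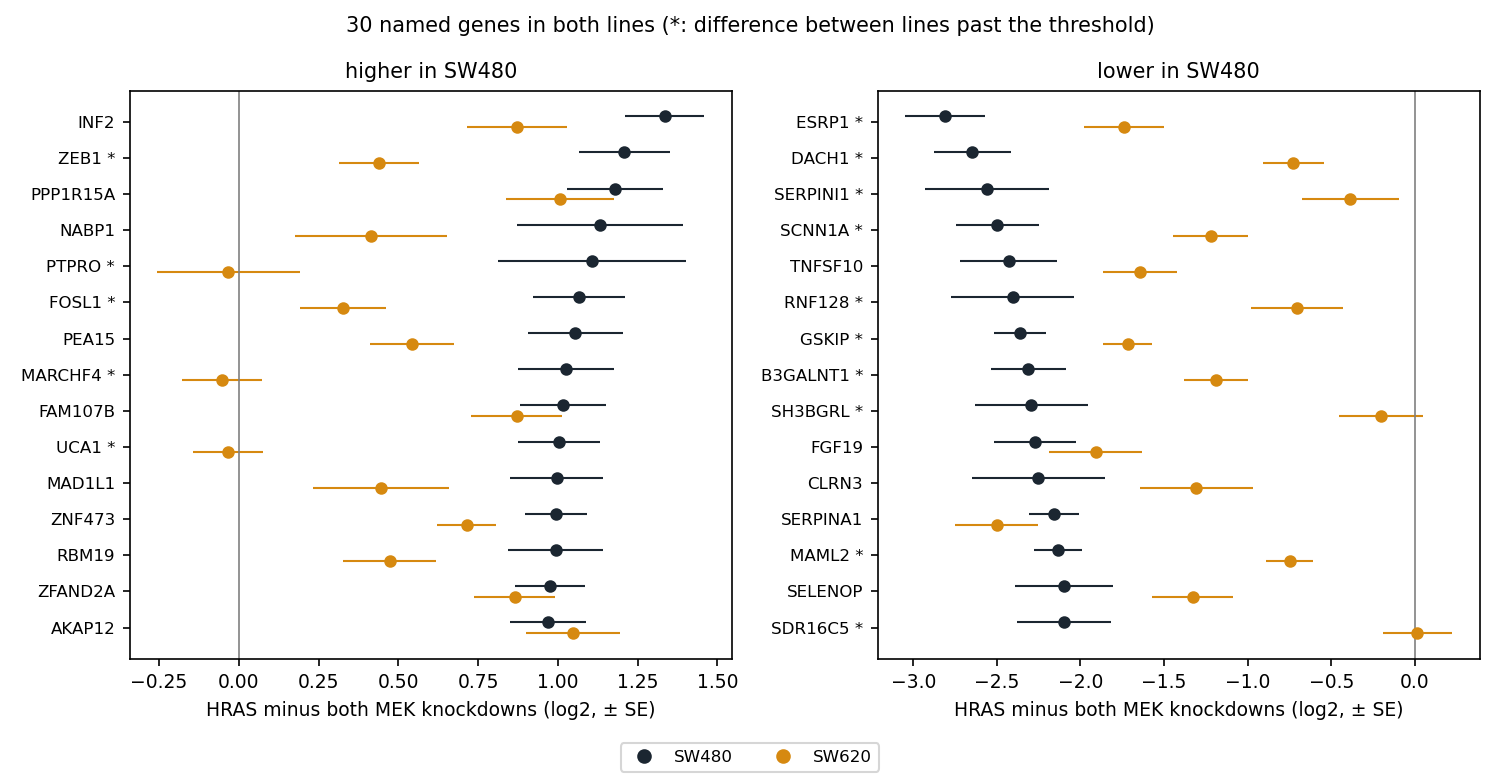
Difference between HRAS knockdown and both MEK knockdowns (log2, ± SE) in SW480 and in SW620 for the 30 named genes, with an asterisk where the difference between lines passed the threshold. SERPINA1 (-2.16 and -2.50) and AKAP12 (0.97 and 1.05) are close together, and SDR16C5 (-2.10 and 0.02) is apart.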

How the data were processed

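The values are log2 expression signals of an Affymetrix 3′ array, computed by the authors with RMA (background correction, quantile normalisation and probe summary), per the submitters' processing notes, with the version not given in the sources used here. The labels' protocols describe Trizol total RNA made into biotinylated cRNA. Nothing was rescaled. Of 54675 probe sets, 41097 have 1 gene in the platform annotation, 1801 several and 11777 none, and 41043 of the symbols were updated through RefSeq. The brightest probe set over all arrays stood for each of 19775 genes, 10523 of which have several. Values of other probe sets are given for some genes only.

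Differences were fitted with limma 3.58.1 in R 4.3.3 (trend and robust variance) with round as a term, over 18 arrays for HRAS against MEK knockdowns, 30 for vector controls and 36 for both lines, and Benjamini-Hochberg adjusted over all genes at 0.05. The fit was tested on simulated data. The named genes are the 15 largest differences each way among genes called against both MEK knockdowns and against each alone with the same sign in all 3 rounds, passing over open reading frames, and genes of the 26 lists (585 genes, 536 measured). The comparison and the lists were chosen with earlier results of these data known, and labels alone put arrays in groups. Same-numbered arrays of different groups were checked for pairing: in replicates 3 to 6 their deviations correlated between -0.335 and 0.029, so they share only a number. Depth does not apply to arrays, and the number of arrays limits the precision. The alternatives are another scaling, other probe rules, averaging and leaving out arrays.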

Additional observations from a re-analysis of the deposited data

Results flagged for a closer look

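In groups of 6 arrays, 20 of 99 tested had a highest or lowest array whose gap to the next was a larger share of the group's range than Dixon's critical value allows, the share being given in brackets below, against 1 in 20 by chance for arrays of 1 population. That chance value does not allow for the 3 rounds of a group, whose levels differ, and 19 of the 20 arrays were replicates 1 or 2. Replicate 1 was the array in 10 groups and replicate 2 in 9. Replicate 1 was highest for CLRN3 with MAP2K1 knockdown (0.695) and MAP2K2 knockdown (0.902), for PTPRO in the same groups (0.644 and 0.692), and for MAD1L1 (0.789) and PPP1R15A (0.695) with HRAS knockdown. It was lowest for HRAS with HRAS knockdown (0.698) and for HRAS (0.895), INF2 (0.711) and RBM19 (0.894) with MAP2K1 knockdown. Replicate 2 was lowest for NABP1 (0.791) and ZFAND2A (0.793) with HRAS knockdown, for ESRP1 (0.91), RNF128 (0.64), SH3BGRL (0.631) and TNFSF10 (0.903) with MAP2K1 knockdown, and for MAP2K1 (0.636), ZFAND2A (0.812) and ZNF473 (0.636) with MAP2K2 knockdown. Replicate 6 was highest for SELENOP with HRAS knockdown (0.701).

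The contrast of HRAS with both MEK knockdowns differed between lines (SW480 minus SW620, limma, adjusted over all genes) for 15 of the named genes. The rises ZEB1 (0.77), PTPRO (1.14), FOSL1 (0.74), MARCHF4 (1.08) and UCA1 (1.04) were larger in SW480, and so were the falls ESRP1 (-1.07), DACH1 (-1.92), SERPINI1 (-2.17), SCNN1A (-1.28), RNF128 (-1.70), GSKIP (-0.64), B3GALNT1 (-1.12), SH3BGRL (-2.09), MAML2 (-1.39) and SDR16C5 (-2.11). The named genes were chosen by their size in SW480, so nothing is read from this shared direction. The largest positive differences of all genes were those of KRT23 (1.60), PSD2 (1.43), IQCH (1.35), PDZK1 (1.30) and G0S2 (1.25), which lay between -1.73 and -1.33 in SW620. The largest negative ones were those of DEFA5 (-4.10), TNFRSF11B (-3.33), FN1 (-2.89), SCG2 (-2.75) and EREG (-2.69).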

How the results depend on the processing

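Counts of called genes moved most with how rounds and arrays were treated. They are given in the order HRAS against both MEK knockdowns, against MAP2K1 and against MAP2K2, MAP2K1 against MAP2K2, then HRAS, MAP2K1 and MAP2K2 against vector controls, SW620, and the difference between lines. With no term for round they were 633, 562, 159, 13, 992, 129, 37, 240 and 54. With arrays averaged in pairs they were 2052, 1744, 716, 3, 2846, 130, 12, 724 and 120. With replicates 3 to 6 averaged to 1 limma called 144, 13, 0, 0, 1008, 0, 1, 106 and 0, against 3943, 3666, 2832, 849, 4515, 1450, 2062, 1984 and 1060 at an unadjusted p under 0.05. Rises made up 40.6% of the HRAS against MEK calls, 19% with no round term, 24.2% in pairs, 3.47% when averaged to 1 and 57.5% after quantile normalisation.

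With the replicate number as a block the counts were 282 for MAP2K1 against MAP2K2 and 1134 between lines, and no other count moved by over 1.5 times. With replicates 3 to 6 only, MAP2K1 against MAP2K2 gave 1768, MAP2K1 and MAP2K2 against controls 5395 and 4749, SW620 5311 and the lines 6419. With only empty-vector arrays as controls, MAP2K1 and MAP2K2 gave 955 and 691. With only non-target hairpin arrays they gave 854 and 623.

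Leaving out each replicate in turn gave 3498 to 6912, 3127 to 5881, 1983 to 5467, 119 to 1244, 3916 to 6280, 605 to 2781, 361 to 1952, 1571 to 3507 and 510 to 3545, in the same order. The lowest were without replicate 3, 4, 5 or 6 and the highest without replicate 1 or 2. The following were chosen after seeing the data. Without the HRAS knockdown arrays of replicates 3 and 4, HRAS against both MEK knockdowns gave 3910, against MAP2K2 2578 and the lines 889, and without those of replicates 5 and 6 the lines gave 3691. With replicates 1 and 2 only, limma called 0 genes for HRAS against both MEK knockdowns, against MAP2K1 and against MAP2K2 and 0 between lines (1984, 1926, 1402 and 460 at an unadjusted p under 0.05), and 54 for HRAS against controls. Without the degraded SW620 array the lines gave 2814. The HRAS difference stayed between -2.23 and -1.54 and was past the threshold in 18 of 19 alternatives, the exception being replicates 1 and 2 only (-2.23). No named gene changed sign. With replicates 3 to 6 averaged to 1, 7 of 32 kept their side of the threshold, with no round term 24, and with replicates 1 and 2 only 1.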

Other observations

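The MEK knockdowns differed from each other by at least 2-fold in 61 called genes, 42 higher and 19 lower with MAP2K1 than with MAP2K2 knockdown. GJA1, the gap junction protein connexin 43 (1.85), INHBE, an activin subunit (1.72), and GALNT3, a glycosyltransferase (1.69), were higher with MAP2K1 than with MAP2K2 knockdown. SERPINE2, a protease inhibitor (-1.67), and the histone gene H4C8 (-1.97) were lower. They are among the 5 largest each way. These differences rest on 6 arrays per group and 1 code for each MEK gene.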
